A study of Mus musculus with 153 samples.

Results

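The genes described here are 42 genes of the cell division cycle, 28 that act in mitosis and 14 that act in DNA replication and S phase. They were followed in tail skin of 151 mice. The members are named by a list that uses no measured value, though it was drawn up with earlier results of these data known. Each was read from the probe set with the highest mean among those annotated with that symbol alone. By that rule 37 of the 42 were measured, 25 of the mitotic genes and 12 of the S phase genes, among 18810 genes measured in all. Kif20a, Nusap1, Ccne2 and Tyms were read by probe sets that also carry another symbol, and Ccnb1 was not matched to a probe set of its own, so these 5 are not analysed here.

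The mice came from a backcross. Mus spretus males were bred to FVB/N females without functional Hras (Hras -/-), and the F1 daughters were bred to FVB/N males of genotype Hras -/- or -/+. Every mouse therefore carries its own mixture of spretus and FVB/N alleles. Tail skin was snap frozen at 8 weeks of age from untreated animals, and total RNA of each mouse went to 1 Affymetrix array. The 2 groups are WT (Hras +/+, 114 mice) and HET (Hras +/-, 37 mice), with 81 males and 70 females spread over 3 processing plates of 49, 46 and 56 mice. Hras encodes a small GTPase that relays growth factor signals to the MAPK cascade. No mouse of the third genotype, Hras -/-, is in the series. Another 2 arrays, both of WT males on plate 2, are labelled as outliers and were kept out of the values below unless stated. The array values are log2 intensities summarised by RMA, so a difference of 1 is a doubling and no level of a gene is compared with that of another gene. Array medians lay between 4.67 and 4.88, and the measured tissue is whole skin, in which fewer dividing cells and less of a transcript per cell cannot be told apart. Marker lists of skin were present as labelled, with a median list mean over mice of 9.03 for basal epidermis (Krt5, Krt14 and others), 10.41 for differentiated epidermis (Krt10, Krt1) and 8.32 for the hair follicle (Krt36, Krt71).

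In dividing cells the replication genes and the mitotic genes are switched on at different points of the cycle. E2F factors drive the genes for licensing and copying DNA, among them the MCM helicase subunits, Cdc6, Cdt1, Pcna and ribonucleotide reductase, before and during S phase. The genes for mitotic cyclins, spindle motors and checkpoint kinases follow in G2 and M, held down in resting cells by the DREAM complex. B-Myb and FoxM1 later switch them on through a promoter element called the cell cycle genes homology region (CHR). Such promoters often carry another element, the CCAAT box. In skin, dividing cells sit mainly in the basal layer of the epidermis, in the matrix of growing hair follicles and at the edge of the sebaceous glands.

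The 2 classes carried different letters in their promoters. RefSeq promoter windows of assembly GRCm38.p6, which span 250 bases before to 50 bases after an annotated start, were found for 36 of the 42 members (39 windows). Ccna2, Aurkb, Kif20a, Tpx2, Ccne2 and Mcm4 had none in the table. The CHR letters TTTGAA, searched on both strands, were in 20 of 26 mitotic windows (76.9%) and in 1 of 13 S phase windows (7.69%), against 17.9% of all 32851 windows. E2F letters were searched on both strands as TTCGCGC, in a second form as TTGGCGC and in another form as TTCCCGC. They were in 5 of 26 mitotic windows (19.2%) and in 7 of 13 S phase windows (53.8%), against 8.07% of all windows. CCAAT, on both strands, was in 21 of 26 mitotic windows (80.8%) and 8 of 13 S phase windows (61.5%), against 37.4% of all windows. Of 24 E2F matches in member windows, 5 shared bases with a CCAAT match. CHR and CCAAT stood together in 18 of 26 mitotic windows (69.2%), against 6.95% of all. The same search over genes outside the members gave 31 of 50 windows with CHR (62.0%) for a list of other mitotic genes and 8 of 45 (17.8%) for a list of other replication genes, and E2F letters in 11 of 50 (22.0%) and 25 of 45 (55.6%). These matches are descriptions of letters and not of bound sites.

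The stretches below are the 170 bases just before the annotated start, 5′ to 3′ on the strand of the gene. They are shown so that the letters counted above can be read, with 5 mitotic genes followed by 3 S phase genes, of which Mcm2 is an exception to the pattern of its class. Capitals mark CHR, CCAAT and E2F letters on either strand, so that CHR also reads TTCAAA and CCAAT also reads ATTGG, and neighbouring matches can share capitals.
Mki67 (chr7:135716380-135716549, minus strand): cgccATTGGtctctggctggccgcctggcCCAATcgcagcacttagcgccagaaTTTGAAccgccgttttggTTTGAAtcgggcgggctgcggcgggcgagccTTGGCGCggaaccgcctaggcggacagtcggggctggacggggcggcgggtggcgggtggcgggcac
Top2a (chr11:99024190-99024359, minus strand): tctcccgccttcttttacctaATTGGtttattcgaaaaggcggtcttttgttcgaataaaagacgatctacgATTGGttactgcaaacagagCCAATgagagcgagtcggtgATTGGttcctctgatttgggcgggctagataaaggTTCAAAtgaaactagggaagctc
Cdk1 (chr10:69352913-69353082, minus strand): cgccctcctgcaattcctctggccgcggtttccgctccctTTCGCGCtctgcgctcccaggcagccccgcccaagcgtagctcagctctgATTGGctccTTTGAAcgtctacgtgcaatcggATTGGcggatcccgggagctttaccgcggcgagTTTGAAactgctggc
Cdc20 (chr4:118437344-118437513, minus strand): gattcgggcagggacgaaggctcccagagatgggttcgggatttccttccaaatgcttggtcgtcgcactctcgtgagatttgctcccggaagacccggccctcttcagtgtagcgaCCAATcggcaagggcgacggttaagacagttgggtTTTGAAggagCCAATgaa
Kif11 (chr19:37376212-37376381, plus strand): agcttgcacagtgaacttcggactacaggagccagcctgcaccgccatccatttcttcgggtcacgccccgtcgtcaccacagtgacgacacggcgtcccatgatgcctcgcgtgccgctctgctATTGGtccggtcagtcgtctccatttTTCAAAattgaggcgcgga
Mcm2 (chr6:88898781-88898950, minus strand): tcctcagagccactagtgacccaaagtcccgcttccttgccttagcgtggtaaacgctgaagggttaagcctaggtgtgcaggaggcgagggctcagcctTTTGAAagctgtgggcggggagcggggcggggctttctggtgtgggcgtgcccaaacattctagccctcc
Mcm5 (chr8:75109339-75109508, plus strand): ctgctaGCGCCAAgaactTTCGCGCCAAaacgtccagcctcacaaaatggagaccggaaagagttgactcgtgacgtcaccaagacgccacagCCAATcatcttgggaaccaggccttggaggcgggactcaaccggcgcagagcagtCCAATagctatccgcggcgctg
Mcm6 (chr1:128359706-128359875, minus strand): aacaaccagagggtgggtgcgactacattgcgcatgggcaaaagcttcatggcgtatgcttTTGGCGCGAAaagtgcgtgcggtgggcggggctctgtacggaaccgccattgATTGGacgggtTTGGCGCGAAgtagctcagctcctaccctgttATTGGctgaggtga
The Cdk1 stretch holds 2 CHR and 2 CCAAT matches and 1 E2F match, and that of Mki67 holds 2, 2 and 1. In Top2a, 4 CCAAT matches precede the CHR letters, whose first base lies 23 bases before the start. In Cdc20 and Kif11 the CHR letters begin 18 and 19 bases before the start, with a CCAAT match at 53 and 45 bases. The Mcm6 stretch holds 4 E2F matches in overlapping pairs, and that of Mcm5 holds 3, with no CHR in either. Mcm2 is the S phase gene whose window holds CHR letters, 70 bases before its start, and its window holds no E2F letters.

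Most members varied between mice by more than the median gene. The standard deviation over mice was above the median of all genes (0.22) for 31 of the 37 members, whose own median was 0.27. Mki67, the gene for the proliferation antigen Ki-67, ran from 7.02 through a median of 7.89 to 8.55 over the 151 mice, a spread of 2.89-fold between the extremes. Top2a, the topoisomerase that untangles chromosomes, ran from 6.65 through 7.35 to 8.27. Cdk1, the kinase that starts mitosis, ran from 6.91 through 7.50 to 8.37.

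The size of the spread differed from gene to gene, also among genes of 1 role. The ratio of the 95th to the 5th percentile of mice had a median of 1.81 over the members. It was smallest for Pcna, the sliding clamp of DNA polymerase, at 1.30 (levels from 8.98 through 9.28 to 9.77) and largest for Kif2c, a kinesin that shortens microtubules, at 2.26 (4.87 through 5.74 to 6.72). The ratio was also low for the helicase subunits Mcm4 (1.43) and Mcm5 (1.52) and for the checkpoint gene Mad2l1 (1.57). It was high for the spindle kinase Aurka (2.12), for the checkpoint kinase Bub1 (2.01), for the helicase subunit Mcm7 (1.95) and for the cytokinesis scaffold Anln (2.01). Among S phase genes the widest ratios were those of Cdc6 (2.02), its partner in licensing Cdt1 (2.00) and the reductase subunit Rrm2 (1.98).

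**Figure D1:**
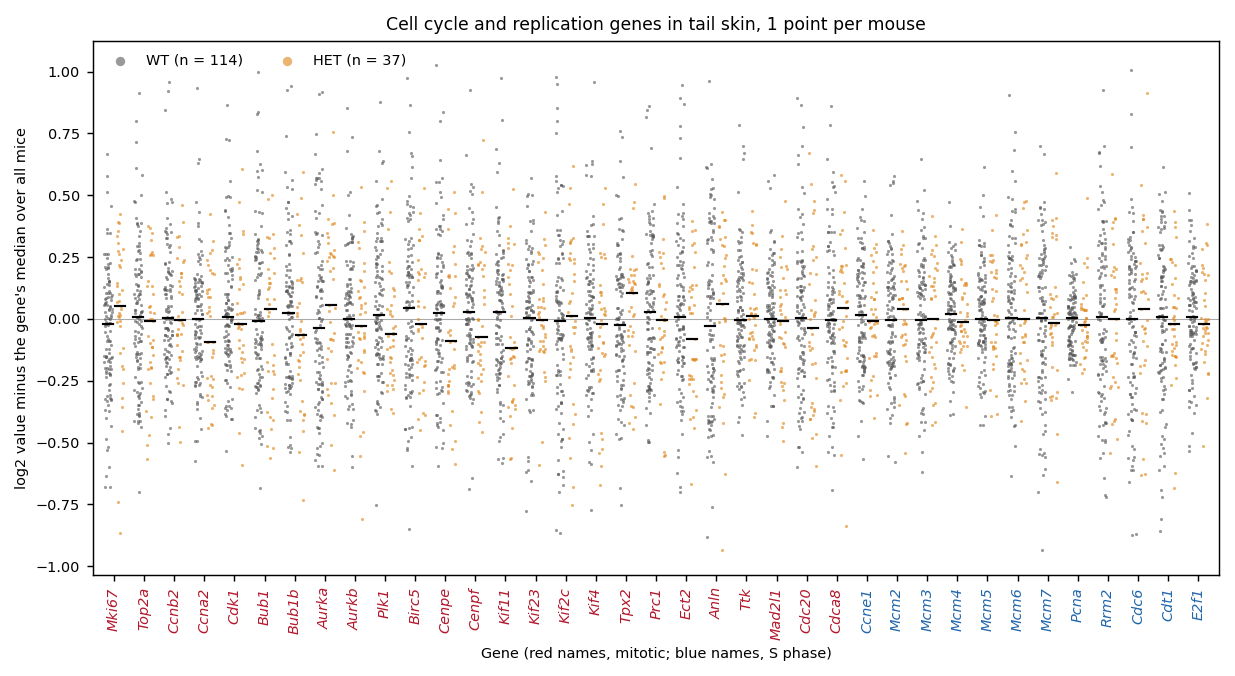
Each point is 1 mouse. The vertical axis is the log2 value of a gene minus that gene's median over 151 mice, the horizontal axis lists the 37 measured genes, grey points are WT mice (n = 114), orange points are HET mice (n = 37) and black bars are group medians. The WT and HET points overlap over nearly their whole range for each gene.

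None of the members differed between HET and WT mice past the threshold, an adjusted p under 0.05 by limma with Benjamini-Hochberg adjustment over all 18810 genes. In that comparison 21 genes (0.112%) were called, and 0 of the 37 members. At an unadjusted p under 0.05, 1235 genes (6.57%) passed and again 0 members. Mki67 ran from 7.21 through 7.87 to 8.55 in WT mice and from 7.02 through 7.94 to 8.32 in HET mice, so the groups overlapped almost completely. Its difference, HET minus WT, was 0.08 ± 0.05 (SE; limma adjusted p = 0.85). The mitotic members lay between -0.09 ± 0.06 (Ect2, which activates RhoA in cytokinesis, 95% interval -0.20 to 0.02) and that value of Mki67 (-0.02 to 0.17), and 7 of 25 were above 0. Kif11, the spindle motor Eg5, ran from 6.11 through 6.72 to 7.66 in WT and from 6.12 through 6.57 to 7.22 in HET mice. Its difference of -0.09 ± 0.05 had the smallest adjusted p of the members by limma (0.82). The S phase members lay between -0.03 (Rrm2) and 0.04 (Cdc6), with 5 of 12 above 0. The median over all 37 was -0.019, and no interval reached beyond -0.20 or 0.19. Pcna had the tightest bound, 0.00 with an interval of -0.05 to 0.05, and Mcm4 lay at -0.01 (-0.07 to 0.06). Among the markers of other skin compartments, the mean of the hair follicle list ran from 6.83 through 8.38 to 9.53 in WT and from 7.08 through 8.06 to 9.24 in HET mice. Of its 27 genes 0 were called and 1 had a difference above 0, against 49.9% of all genes. The list's part in the members' values was not tested beyond the covariate fit, in which the members' median was -0.007. Mki67, Plk1, Prc1 and Ccne1 lie on chromosome 7, as Hras does. By the cross, a WT mouse took its maternal Hras copy from spretus, while a HET mouse could take either maternal copy. For genes linked to Hras, the genotype and nearby spretus alleles therefore cannot be told apart, and the part of such alleles was not tested.

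Neither were members called between the sexes, in a comparison where limma called 680 genes (3.62%), 207 higher and 473 lower in males. Unadjusted p was under 0.05 for 4 of the 37 members, against 3077 genes (16.4%) in all. These 4 were Cdk1, Kif2c, Anln and Cdc20, the activator of the anaphase promoting complex. Cdk1 ran from 7.09 through 7.52 to 8.37 in males and from 6.91 through 7.47 to 7.94 in females, with wide overlap. Its difference, male minus female, was 0.10 ± 0.04 (SE; limma adjusted p = 0.15). The differences of Kif2c and Anln were 0.12 ± 0.06 and 0.11 ± 0.06, each with an adjusted p of 0.28, and that of Cdc20 was 0.10 ± 0.05 with 0.30. The differences of all 37 had a median of 0.040 and 30 were above 0, against 44.9% of all genes. Of the mitotic class 23 of 25 were above 0 (median 0.048), and of the S phase class 7 of 12 (median 0.009). Whether the classes differ in this was not tested.

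A list of stress keratins and alarm genes (Krt6a, Krt16, Krt17, S100a8 and others) was higher in males in part of its genes. Such genes rise in irritated or healing epidermis, but no label records such a state in these mice. Of the list's 11 genes, 3 were called higher in males, Sprr2d, Lcn2 and S100a8, where 207 of all 18810 genes were called higher. The mean level of the list ran from 6.23 through 7.12 to 9.79 in males and from 6.14 through 6.98 to 8.82 in females. Other lists were lower in males. Of the 27 hair follicle genes 3 were called lower and 0 had a difference above 0 (median -0.275). Of 8 adipocyte genes 3 were called lower and 0 were above 0 (median -0.212). Over all 18810 genes 473 were called lower and 44.9% were above 0. With the hair follicle list's mean in the model, the members' median was 0.052, 33 of 37 were above 0 and 8 had an unadjusted p under 0.05. With the stress list's mean in the model, an alternative added after seeing the data, the median was 0.013, 20 of 37 were above 0 and 0 had an unadjusted p under 0.05. In the 114 WT mice alone the median was 0.049, with 34 of 37 above 0 and 6 at an unadjusted p under 0.05, and in the 37 HET mice alone it was -0.008, with 16 above 0 and 0 at that p. No member was called by limma in these 4 fits. The genotype by sex term was called for 0 of 18810 genes (0%) and for 0 members by limma, and 895 genes (4.76%) and 0 members had an unadjusted p under 0.05.

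**Figure D2:**
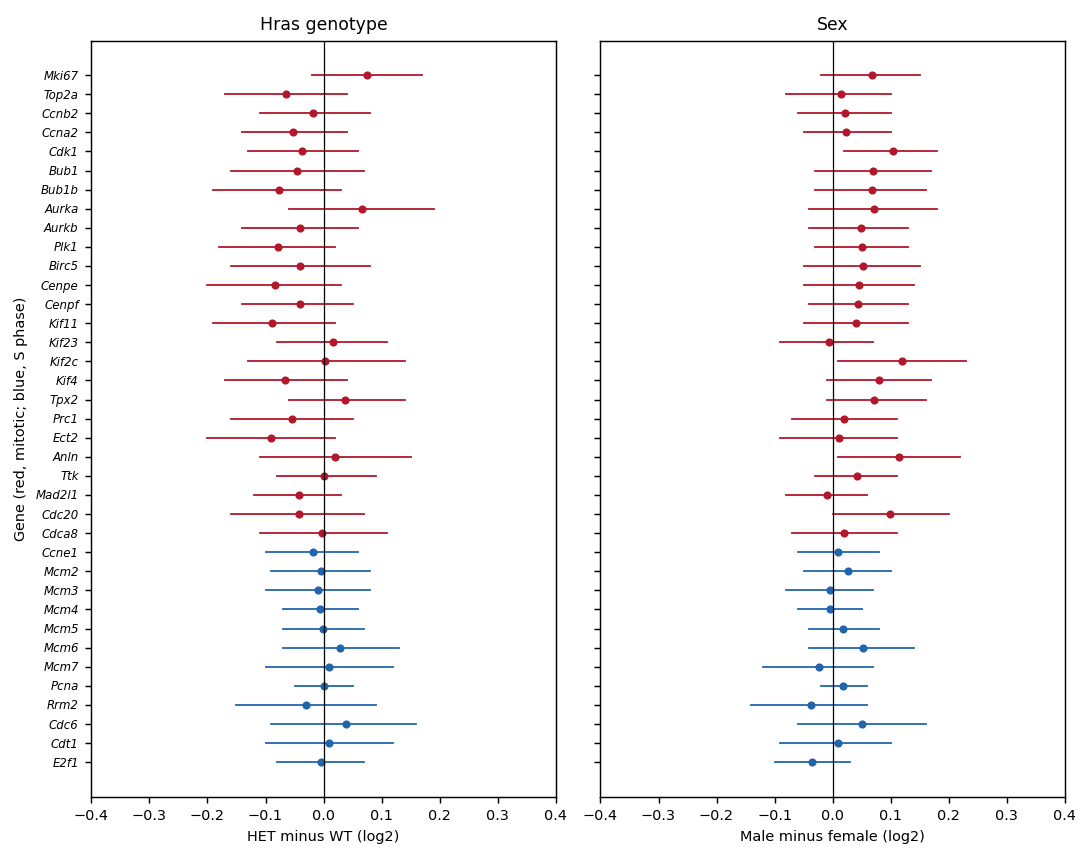
Points are limma differences on the log2 scale for each of 37 genes, HET minus WT on the left and male minus female on the right, with 95% intervals as bars. Red marks mitotic and blue marks S phase genes. On the left every interval spans 0. On the right most red points lie to the right of 0, the intervals of Cdk1, Kif2c and Anln leave it out, and that of Cdc20 ends at 0.00.

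No member was called between plates, though few genes of any kind were. In the 3 comparisons of plates limma called 0 (0%), 4 (0.0213%) and 4 (0.0213%) of 18810 genes for plate 2 minus 1, 3 minus 1 and 3 minus 2. Of the members 0 were called in each, and 0 had an unadjusted p under 0.05. For all genes, 385 (2.05%), 339 (1.80%) and 29 (0.154%) had an unadjusted p under 0.05. Each of these shares is below 0.05, the share that such p-values give where no gene differs. The labels do not say whether values were adjusted for plate before deposit. After such an adjustment few calls would be left to find, so the absence of called members says little about the plates. The members' medians were 0.000, 0.019 and 0.016.

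Although the groups hardly differed, the members rose and fell together from mouse to mouse. Correlations were taken over 151 mice after the means of plate, sex and genotype had been removed. No pair of members was negative, and r ran from 0.05 (Aurka with E2f1) to 0.83 (Ccna2 with Kif11). Pairs of mitotic genes had a mean r of 0.59 (300 pairs, 0.27 to 0.83), pairs of S phase genes 0.44 (66 pairs, 0.13 to 0.69) and pairs across the classes 0.36 (300 pairs, 0.05 to 0.63). Within plates 1, 2 and 3 mitotic pairs had a mean r of 0.52, 0.73 and 0.53, and S phase pairs 0.50, 0.47 and 0.38. Pairs across the classes had 0.35, 0.48 and 0.30, so on plate 2 S phase pairs were no closer than pairs across the classes. Plate 3 held 8 negative pairs across the classes and plate 2 held 1, next to 1 between S phase genes. A first principal component took 50.1% of the variance of the 37 members, with every member on the same side. The second took 8.14% and set all 12 S phase genes on the side opposite to 23 of the 25 mitotic genes, with 2 mitotic genes beside the S phase genes.

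**Figure D3:**
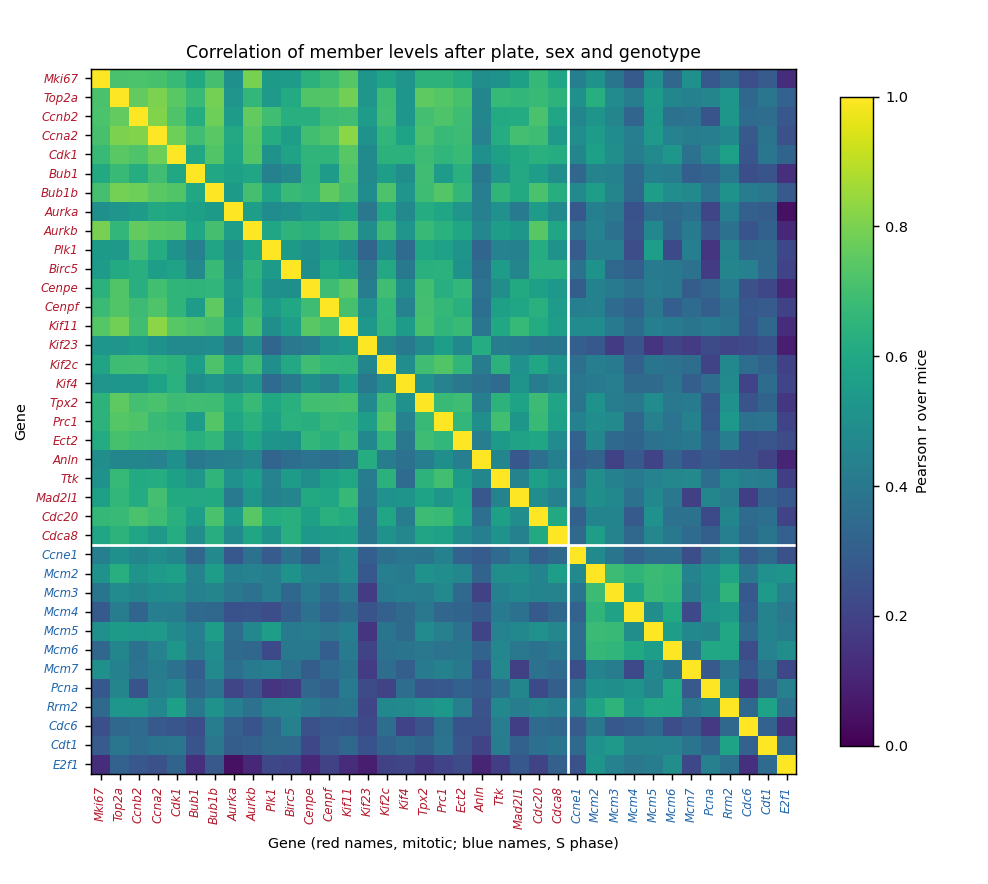
The colour of each square is Pearson r (scale 0 to 1) between a pair of the 37 genes over 151 mice after removal of plate, sex and genotype means. White lines part the 25 mitotic genes (red names) from the 12 S phase genes (blue names). The upper left block of mitotic genes is brightest, with a second bright patch for Mcm2 to Mcm6, and the row of E2f1 is darkest.

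Members were also compared with the mean of the other members of each class. All 25 mitotic genes lay closer to the other mitotic genes than to the S phase genes, on each of the 3 plates as well. The median r of mitotic genes was 0.78 with their own class and 0.52 with the S phase class. By role, the mitotic cyclins and their kinase had the highest median r with the other mitotic genes, 0.86, though single genes of other roles came as close. Ccna2 and Ccnb2, the cyclins A2 and B2, reached 0.87 and 0.86, Cdk1 reached 0.83 and Top2a 0.87. The spindle assembly gene Tpx2 reached 0.83, Kif11 0.84 and the checkpoint kinase Bub1b 0.85. Anln (0.54), the central spindle kinesin Kif23 (0.60) and the chromokinesin Kif4 (0.61) were the loosest, while Ect2, also a gene of cytokinesis, reached 0.77. Anln and Kif23 were each other's best match among the members (r = 0.62), and both lie on chromosome 9.

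Of the 12 S phase genes, 9 lay closer to their own class on each of the 3 plates and over all mice, and the class had a median r of 0.64 with itself against 0.48 with the mitotic class. Among the subunits of the MCM helicase, the ring that opens DNA at the fork, Mcm2 had an r of 0.82 with the other S phase genes, Mcm3 0.77, Mcm6 0.74, Mcm5 0.72 and Mcm4 0.66. Rrm2 had 0.73. Mcm7, a subunit of the same ring, had 0.48 to either class. Cyclin E1 (Ccne1, 0.49 and 0.49) and Cdc6 (0.39 and 0.39) were no closer to S phase genes than to mitotic genes at this precision. E2f1, the transcription factor of this class, had 0.52 with S phase genes and 0.25 with mitotic genes.

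Each member's most correlated gene among all measured genes was another member of the same class for 28 of 37. The best match of 4 others was a gene of the pathway lists below: the condensin subunit Ncapd2 for Birc5 (survivin) and for Cdca8 (borealin), and the large reductase subunit Rrm1 for Ccne1 and Mcm2. Another 5 members matched best with a gene outside the lists. These were Taf1d for Anln (r = 0.69), Crcp for Mcm7 (0.57), Car2 for Rrm2 (0.66), Kntc1 for Cdc6 (0.54) and Eif3b for Cdt1 (0.58). Partners lay on the member's own chromosome in 5 of 37 cases, where 6.36% of measured genes would share it on average. In the cases of Taf1d and Crcp the partners lay 106 and 105 measured genes away from the member.

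Mki67 and Mcm2 were then used as markers, 1 for each class. Over 71 pairs of a member with either marker, tested by two-sided permutation with 100000 draws and adjusted over those pairs, Mki67 passed with all 24 other mitotic genes and with 11 of 12 S phase genes, and Mcm2 passed with all 24 mitotic genes other than Mki67 and with all 11 other S phase genes. The median r with Mki67 was 0.63 for mitotic genes (0.49 to 0.80) and 0.34 for S phase genes (0.13 for E2f1 to 0.52 for Mcm2). The smallest p these draws can give is 1e-05, and E2f1 with Mki67 had p = 0.12. The median r with Mcm2 was 0.47 for mitotic genes (0.28 for Kif23 to 0.63 for Top2a) and 0.52 for S phase genes (0.40 to 0.69). For all genes r with Mki67 had a median of 0.00 and a range from the 5th to the 95th percentile of -0.25 to 0.24. Leaving out the 2 mice farthest from the median of the marker left the 4 medians at 0.63, 0.34, 0.47 and 0.51. Within plates the mitotic median with Mki67 was 0.61, 0.78 and 0.51, and the S phase median with Mcm2 was 0.65, 0.64 and 0.50. The medians across the classes were 0.27, 0.50 and 0.30 for S phase genes with Mki67 and 0.43, 0.67 and 0.40 for mitotic genes with Mcm2.

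As slopes in limma, with plate, sex and genotype in the model, 35 of 36 members rose with Mki67, where 1151 of 18809 genes (6.12%) rose and 1296 (6.89%) fell. Aurkb, the kinase of the chromosomal passenger complex, rose by 0.79 ± 0.05 (SE) log2 units for each log2 unit of Mki67 (limma adjusted p = 1.7e-29). Cdc20 rose by 0.77 ± 0.07 and Ttk, the checkpoint kinase Mps1, by 0.44 ± 0.06. E2f1 was the member not called, with 0.10 ± 0.06 (limma adjusted p = 0.34). All 36 members rose with Mcm2, where 1667 of 18809 genes (8.86%) rose and 1052 (5.59%) fell. Mcm6 rose by 0.80 ± 0.07, Rrm2 by 0.82 ± 0.09 and Pcna by 0.27 ± 0.04 for each log2 unit of Mcm2. In plate 3 alone 17 members were called with Mki67 and 11 with Mcm2, and in plate 1 alone 20 and 20.

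With both markers in the model, in fits added after seeing the data, the classes came apart. Slopes on Mki67 with Mcm2 held were called for 24 of 24 mitotic genes and for 2 of 11 S phase genes, Mcm7 (0.42 ± 0.09) and Ccne1 (0.21 ± 0.07), in a fit that called 454 of 18808 genes as rising (2.41%). For Mcm6, Pcna and Mcm3 that slope was -0.02 ± 0.07, 0.01 ± 0.04 and 0.05 ± 0.06. Slopes on Mcm2 with Mki67 held were called for 11 of 11 S phase genes and for 11 of 24 mitotic genes, where 1196 of 18808 genes (6.36%) rose. The 11 mitotic genes were Birc5, Bub1b, Ccna2, Ccnb2, Cdca8, Cdk1, Mad2l1, Prc1, Top2a, Tpx2 and Ttk. For Aurkb and Kif23 the slope on Mcm2 with Mki67 held was 0.05 ± 0.07 and 0.01 ± 0.09.

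The difference between the slopes was tested directly, per standard deviation of each marker, in a fit added after seeing the data. It was called for 12 of 35 members, where 605 of 18808 genes (3.22%) were called. A gene is said below to lean to Mki67 where the signed difference, slope on Mki67 minus slope on Mcm2, was called above 0, and to Mcm2 where it was called below 0. Aurkb, Kif11, Cdc20, Kif23, Cenpf, Cenpe and Ccnb2 leaned to Mki67, where 103 of 18808 genes (0.548%) did. The difference was 0.19 ± 0.03 for Aurkb (limma adjusted p = 9.8e-07) and 0.10 ± 0.03 for Ccnb2 (0.026). Mcm6, E2f1, Rrm2, Mcm3 and Mcm4 leaned to Mcm2, where 502 genes (2.67%) did. That of Mcm6 was -0.19 ± 0.03 (limma adjusted p = 2.8e-04) and that of E2f1 -0.16 ± 0.03 (2.5e-04). No mitotic gene leaned to Mcm2 and no S phase gene to Mki67. The other 23 members, Top2a (0.05 ± 0.03), Cdk1 (0.06 ± 0.03) and Mcm7 (0.03 ± 0.04) among them, were not called in either direction.

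**Figure D4:**
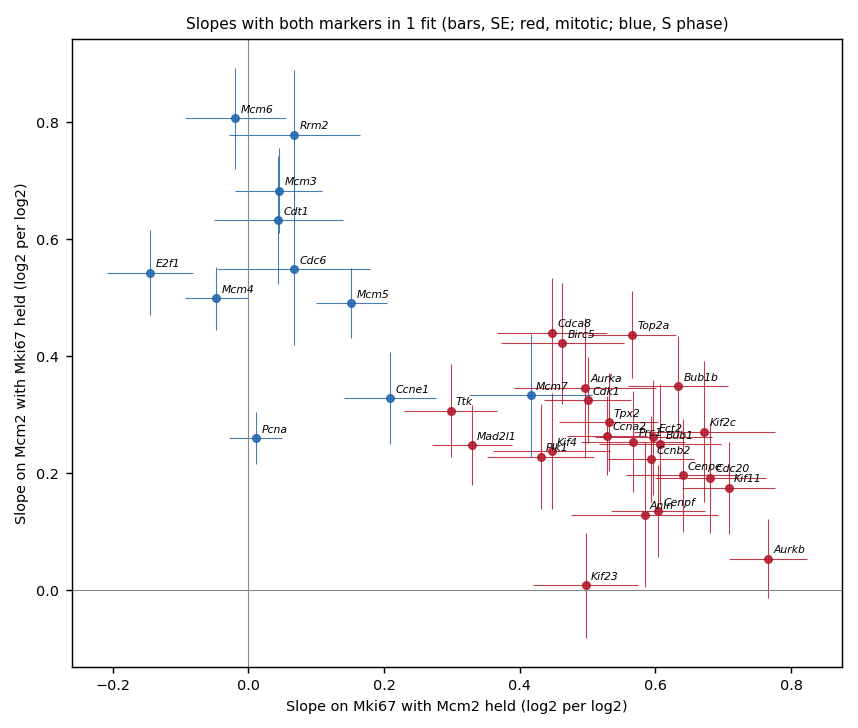
Each point is a gene, placed by its limma slope on Mki67 with Mcm2 held (horizontal) and on Mcm2 with Mki67 held (vertical), in log2 units per log2 unit of the marker, with SE bars. Mitotic genes (red) lie to the right with Aurkb farthest, and S phase genes (blue) lie to the upper left with Mcm6 highest and Mcm7 among the red points.

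The mean of the 25 mitotic genes and that of the 12 S phase genes, each gene standardised first, correlated with r = 0.67 over 151 mice (Spearman rho 0.68, 95% interval of r 0.57 to 0.75). On plates 1, 2 and 3 r was 0.64, 0.78 and 0.62. In males it was 0.69 and in females 0.66. With the mean of the stress keratin and alarm list removed first it was 0.57, and with the mean of the hair follicle list removed first it was 0.67.

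**Figure D5:**
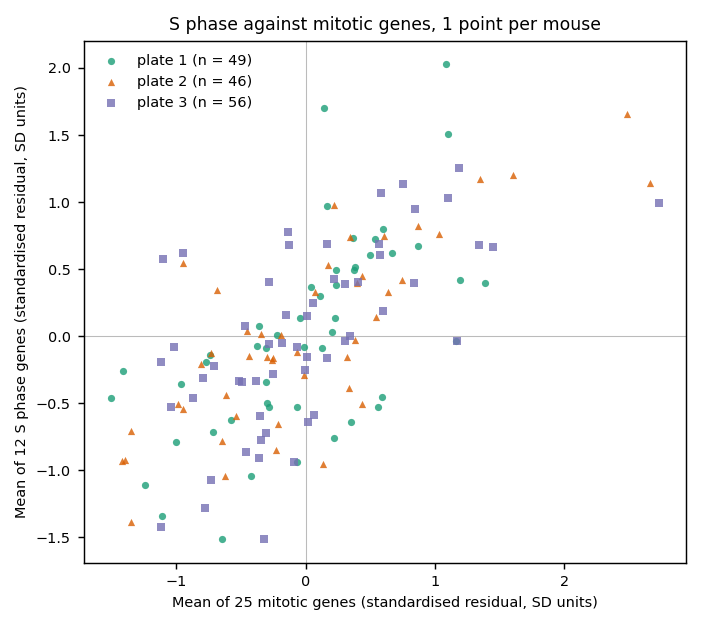
Each point is 1 mouse, placed by the mean of 25 mitotic genes (horizontal) and of 12 S phase genes (vertical), both in SD units after plate, sex and genotype means were removed. Colour and shape give the plate (n = 49, 46 and 56). The cloud rises from lower left to upper right on each plate (r = 0.64, 0.78 and 0.62).

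The wider cell cycle machinery was read from 7 lists of genes that are not members. Over all genes 6.12% rose and 6.89% fell with Mki67, and 8.86% rose and 5.59% fell with Mcm2. Of 55 other mitotic genes (condensins, kinetochore proteins, kinesins), 53 rose with Mki67 and 52 with Mcm2, and none fell. Of 41 other replication genes (origin recognition, GINS, polymerases, clamp loader), 23 rose with Mki67 and 35 with Mcm2, and none fell. The median slopes of the mitotic list were 0.54 and 0.50, and those of the replication list 0.20 and 0.39. In the direct test of the slopes, 5 of the 55 mitotic genes leaned to Mki67 (Kif18b, Knl1, Hmmr, Spag5, Smc4) and none to Mcm2, while 11 of the 41 replication genes leaned to Mcm2 and none to Mki67. The strongest of these 11 were Prim1 (the primase, -0.18 ± 0.04, limma adjusted p = 0.0015), Orc6 (-0.11 ± 0.02, 0.0026) and Rfc2 (-0.16 ± 0.04, 0.0028).

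Of 19 genes of the DREAM complex and the cell cycle transcription factors, 9 rose with Mki67 and 3 fell. Foxm1 and Rbbp4 were in the list as written but were not measured by the probe set rule, so nothing is said of them. E2f8, a repressor that limits E2F targets, rose by 0.62 ± 0.06, the pocket protein Rbl1 (p107) by 0.38 ± 0.05 and Mycn by 0.79 ± 0.12. Rbl2 (p130), the pocket protein of resting cells, fell by 0.19 with an SE of 0.07 (limma adjusted p = 0.033), and Lin54 and Myc fell by 0.14 and 0.21 (0.042 and 0.049). With Mcm2, 9 of the 19 rose and none fell, Mybl2 (B-Myb) by 0.68 ± 0.09 among them. The direct test gave differences below 0 for Myc and Lin54, -0.20 ± 0.04 and -0.09 ± 0.03 (limma adjusted p = 0.001 and 0.032). With both markers in the model Myc fell with Mki67 by 0.40 and rose with Mcm2 by 0.41 ± 0.10, and Lin54 fell with Mki67 by 0.21 and was not called with Mcm2.

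Of 12 genes for G1 cyclins, kinases and their regulators, 4 rose with Mki67, Ccnd1 (cyclin D1, 0.30 ± 0.04), Cdkn3, Skp2 and Cdk4. With Mcm2 4 rose, among them Ccnd1 (0.30 ± 0.05). Of 17 CDK inhibitors and p53 targets, 2 rose and 1 fell with Mki67, and 1 rose and 4 fell with Mcm2. For a list of 17, the counts with Mki67 and the 1 gene rising with Mcm2 lie near the shares of all genes. Those shares were 6.12% rising and 6.89% falling with Mki67, and 8.86% rising and 5.59% falling with Mcm2. Cdkn1c (p57) fell with both, by 0.33 with Mki67 (limma adjusted p = 0.0011) and by 0.34 with Mcm2 (0.0038). Cdkn1a (p21), Cdkn1b (p27) and Cdkn2b (p15) fell with Mcm2 by 0.19, 0.14 and 0.36. Gadd45a, a stress-induced gene of that list, rose with both, by 0.32 ± 0.10 and 0.46 ± 0.12. Of 13 genes of the anaphase promoting complex and its inhibitors, 3 rose with Mki67 and 7 with Mcm2, and of 11 cohesin genes 2 and 3 rose, with the S phase acetyltransferase Esco2 (0.73 ± 0.07 with Mki67) steepest. Between HET and WT mice 0 genes of the 7 lists were called, where 0.112% of all genes were. Between the sexes 2 were called, both lower in males, where 3.62% of all genes were called. Cenpi, a kinetochore gene, differed by -0.41 ± 0.08 (limma adjusted p = 1.3e-04), and the cohesin subunit Stag2 by -0.09 ± 0.03 (0.017).

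Outside the members, the 15 genes most correlated with Mki67 were Ncapd2, Kif15, Knl1, Ncaph, Spag5, Asf1b, Kif18b, Esco2, E2f8, Racgap1, Aspm, Dlgap5, Hmmr, Rrm1 and Nek2, with r from 0.69 to 0.63. Of these, 14 are in the 7 lists, and Aspm, a spindle pole protein, is the other. The 10 with the lowest r were Sik1, Klf6, Spag1, Rnf103, Pim3, Bbox1, Dusp1, Slc43a1, Ndnf and Crebrf, from -0.53 to -0.49. Sik1 is a kinase induced by cAMP, and Klf6 and Dusp1 are immediate early genes. On the 3 plates r with Mki67 was -0.45, -0.80 and -0.42 for Sik1 and -0.47, -0.74 and -0.37 for Dusp1.

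The 15 genes most correlated with Mcm2 were Rrm1, Mcm10, Lig1, Dnmt1, Eif3c, Asf1b, Fancd2, Pclaf, Racgap1, Prim1, Brca1, Ncapd2, Kntc1, Cip2a and Pdia6, from 0.70 to 0.57. Here 8 of the 15 are in the 7 lists. Lig1 joins Okazaki fragments and Dnmt1 copies DNA methylation behind the fork. Fancd2, Brca1 and Pclaf act at stalled or repaired forks, while Eif3c is a translation initiation factor. The 10 with the lowest r were Mdfic, Mospd2, Fchsd2, Slc43a1, Cldn1, Use1, Btbd3, Acsl4, Crebrf and Il6ra, from -0.53 to -0.45, of which Slc43a1 and Crebrf are also among the lowest with Mki67.

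Cell type lists were set beside the class means to see which parts of the skin moved with them. The list with the highest r was that of stress keratins and alarm genes, 0.45 with the mitotic mean and 0.55 with the S phase mean (Spearman rho 0.35 and 0.51). On the plates these were 0.38, 0.47 and 0.55 for the mitotic mean and 0.71, 0.61 and 0.41 for the S phase mean. Of its 11 genes, 5 rose with Mki67 and 9 with Mcm2, where 6.12% and 8.86% of all genes rose. Krt16 rose by 2.30 ± 0.36, S100a8 by 3.28 ± 0.57 and Sprr1b by 1.13 ± 0.15 log2 units for each log2 unit of Mcm2. With Mki67 held 8 of 11 still rose with Mcm2, where 6.36% of all genes rose. With Mcm2 held 0 of 11 rose with Mki67, where 2.41% of all genes rose. But the direct test of the slopes called 0 of 11, where 3.22% of all genes were called.

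The list of the hair matrix, shaft and inner root sheath had an r of 0.24 with the mitotic mean and 0.10 with the S phase mean. On the plates these were 0.24, 0.27 and 0.21, and -0.02, 0.04 and 0.27. Of its 27 genes, 17 rose with Mki67 and 3 with Mcm2, where 6.12% and 8.86% of all genes rose. Lef1, a Wnt effector of the hair matrix, rose by 0.81 ± 0.15 with Mki67, the signal Shh by 0.41 ± 0.09 and the cortex keratin Krt35 by 1.06 ± 0.24. These genes are examples of those that rose and do not stand for the whole list. The direct test of the slopes called 0 of the 27 by limma, where 3.22% of all genes were called.

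The sebaceous gland list had the lowest r, -0.44 with the mitotic mean and -0.37 with the S phase mean, and was negative on each plate (-0.38, -0.39 and -0.58 for the mitotic mean). Of its 11 genes, 5 fell with Mki67 and 4 with Mcm2, where 6.89% and 5.59% of all genes fell. Dgat2, which makes triglycerides, fell by 0.30 with Mki67, Awat2, a wax synthase, by 0.72, and Pparg, the factor of lipid-forming cells, by 0.23. These genes are examples of those that fell and do not stand for the whole list. Lists of cartilage, bone and tendon (-0.22 and -0.24), endothelium (-0.22 and -0.21), macrophages and dendritic cells (-0.21 and -0.18), skeletal muscle (-0.13 and -0.23), adipocytes (-0.18 and -0.25) and dermal fibroblasts (-0.17 and -0.15) had negative r with both means. On plate 3 alone r with the mitotic mean was 0.14 for adipocytes, 0.10 for skeletal muscle and 0.07 for macrophages and dendritic cells, and on plate 2 it was -0.47, -0.11 and -0.56. On plate 1 macrophages and dendritic cells had 0.05 with the S phase mean. The list of basal epidermis, where most interfollicular cells divide, had 0.05 and 0.14, and that of differentiated epidermis 0.03 and 0.02. Erythroid cells had 0.10 and 0.04, T lymphocytes 0.01 and 0.03, B lymphocytes -0.02 and -0.09, melanocytes -0.02 and 0.05, and granulocytes -0.07 and -0.25. Many genes of the blood cell lists had a mean under the highest lower quartile of any array. These were 4 of 7 erythroid, 4 of 9 T lymphocyte, 5 of 7 B lymphocyte and 7 of 10 granulocyte genes. The r of these lists therefore rest in good part on values near the floor and say little about those cells. These r describe lists that share arrays with the members, and their part in the members' spread was not tested beyond the covariate values given above.

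A check of single probe sets bears on 5 members with more than 1. The other probe set of Pcna followed the one used with r = 0.99. Other probe sets of Top2a (means 2.49 and 2.03), Kif11 (3.80) and Prc1 (3.16) followed theirs with r of -0.05, 0.55, 0.26 and 0.07, and that of Mad2l1 (5.80) with 0.52.

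The 2 arrays labelled as outliers differed from each other on the members. On the first, 30 of 37 members lay below the median of the 151 mice, with a median deviation of -0.120, and 1 lay below their range. On the second, 1 member lay below the median and 8 lay above the range, with a median deviation of 0.607. Of all genes, 6.65% and 9.37% lay outside the range of the 151 mice on these arrays. Cdk1 read 7.34 and 8.38 and Kif2c 5.66 and 6.96 on them.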

How the data were processed

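Tail skin RNA of 153 mice was hybridised to Affymetrix arrays, 1 array per mouse. The deposited values are log2 intensities made by the authors with RMA, per the submitters' processing notes. Its version and any plate adjustment are not stated there. Of 35385 probe sets with values, 21201 carried 1 symbol, and the probe set with the highest mean stood for each of 18810 genes. Groups, sex, plate and outlier labels came from the labels. Differences and slopes came from limma (version 3.58.1, R 4.3.3) on all genes, with plate, sex and genotype in the model and a mean-variance trend. P-values were adjusted by Benjamini-Hochberg over all genes and called under 0.05. The fits were tested on simulated data. Correlations used residuals after the same terms. Correlated genes were named by rank, the 15 highest and 10 lowest outside the members. Members and lists were chosen with earlier results of these data known. Genotype labels were not checked against the Hras transcript, which is left out here. Mice of a cross share parents, which no label identified, so relatedness was not modelled. Arrays limit precision by their number. Alternatives covered scaling, probe sets, plates, sexes, outlier arrays and list covariates.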

Additional observations from a re-analysis of the deposited data

How the results depend on the processing

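Members called between genotypes, sexes or plates stayed at 0 under every alternative run (14 for genotype, 14 for sex, 10 for each pair of plates), with members' medians of -0.044 to 0.006 for genotype and -0.008 to 0.058 for sex. The counts over all genes moved from 21 to between 0 and 24 for genotype, from 680 to between 26 (HET mice alone) and 843 (outlier arrays included) for sex, from 4 to between 2 and 8 for plate 3 minus 1 and from 4 to between 2 and 7 for plate 3 minus 2. With Mki67, 35 members were called, 20 in plate 1 alone and 17 in plate 3 alone, and genes in all went from 2447 to between 73 (plate 3) and 3194 (Top2a in place of Mki67). With Mcm2, 36 members were called, 20 in plate 1 alone, 11 in plate 3 alone and 22 with Mki67 as covariate, and genes in all went from 2719 to between 94 and 3223. Fewer mice enter a single plate. Slopes on Mki67 turned negative with Mcm2 as covariate for E2f1 (-0.14), Mcm4 (-0.05) and Mcm6 (-0.02), and the sex difference of Anln was -0.01 in plate 1 alone; the cause was not tested. The r of the class means was 0.78 in plate 2 and 0.57 with the stress list as covariate. The stress covariate, the fits with the other marker as covariate, the 2-marker slope difference and the other Pcna probe set were chosen after seeing the data.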
